A study of Mus musculus with 6 samples.

Results

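The genes described here encode the proteins of the cytosolic ribosome. They were chosen by a rule on gene names, with earlier results of these data known. It took every gene whose symbol is Rpl or Rps followed by a number, with the acidic stalk proteins and Rpsa. Pseudogenes and the Rps6k kinases were left out. A gene counted if an array probe set (a group of short probes read as one value) carried its symbol and no other. The rule found 49 of the 18194 genes measured, 26 of the large and 23 of the small ribosomal subunit. Each gene is given by its brightest probe set, and signals of different probe sets are not comparable as amounts of RNA.

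The 6 Affymetrix arrays measured RNA of testicular cells of ICR mice, males aged 3 to 5 days, in 3 groups of 2 arrays. SSC are unipotent germ-line spermatogonial stem cells, the cells that maintain sperm production; iSSC are cells in an intermediate state; mSSC are multipotent cells. Per the labels, stem cell clumps of early (0 to 1) and middle (9 to 10) passages grew on mitomycin-treated embryonic fibroblasts, colonies that became flat or resembled embryonic stem cells were kept in GS medium or moved to KSR-mES medium, and colonies were picked by their shape. No allele or transgene is named; the sources used here do not give which array came from which passage or medium, or whether the 2 arrays of a group came from separate cultures, so p-values measure the spread between these arrays, which may be technical.

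A cytosolic ribosome has a small subunit, which reads the mRNA, and a large subunit, which joins amino acids and releases the growing chain through an exit tunnel. The genes of its proteins are transcribed strongly in nearly every growing cell, and their mRNAs begin with a run of pyrimidines (the TOP motif) through which the kinase mTOR and the protein Larp1 set how well they are translated. Free ribosomal proteins of the 5S particle, Rpl5 and Rpl11, bind Mdm2 and so connect ribosome assembly with p53. Several members have a second gene copy, a paralog, with its own tissue pattern; Rpl39l, the copy of the exit tunnel protein Rpl39, is known for its expression in male germ cells.

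The promoters of the 4 members that passed the test are shown first, with those of Rpl39, the parent gene of Rpl39l, and of Rpl38, a member with nearly the same signal in all groups. Each stretch runs from 80 bases before to 20 bases into the transcript, 5′ to 3′ on the gene's strand, from RefSeq on build GRCm38.p6. Capitals mark the core of an Ets factor site, CCGGAAG, or the pyrimidine run CTTTCC, on either strand.
Rpl39l, chr16:10170148-10170247, plus strand: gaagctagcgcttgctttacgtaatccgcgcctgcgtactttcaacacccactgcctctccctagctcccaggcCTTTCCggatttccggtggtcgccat
Rpl39, chrX:37085203-37085302, minus strand: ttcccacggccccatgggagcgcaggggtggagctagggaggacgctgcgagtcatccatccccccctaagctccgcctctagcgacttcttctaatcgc
Rpl7l1, chr17:46782637-46782736, minus strand: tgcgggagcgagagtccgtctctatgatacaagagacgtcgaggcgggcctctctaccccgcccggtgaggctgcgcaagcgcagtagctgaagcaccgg
Rpl12, chr2:32961632-32961731, plus strand: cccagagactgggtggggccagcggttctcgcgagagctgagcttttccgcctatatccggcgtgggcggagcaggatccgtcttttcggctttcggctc
Rpl14, chr9:120571437-120571536, plus strand: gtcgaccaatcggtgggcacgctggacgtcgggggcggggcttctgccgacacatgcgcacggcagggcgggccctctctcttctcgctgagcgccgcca
Rpl38, chr11:114668500-114668599, plus strand: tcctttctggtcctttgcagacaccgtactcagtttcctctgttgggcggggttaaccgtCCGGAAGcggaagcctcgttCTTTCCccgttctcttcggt
In these 100 bases CTTTCC occurs in Rpl39l and Rpl38, and CCGGAAG in Rpl38. Over the longer RefSeq windows, from 250 bases before to 50 after the start, 43 of the 49 members were found, with 51 windows. CCGGAAG lay in 21 of the 51 windows (41.2%), against 13.0% of the 18110 windows of all measured genes. CTTTCC lay in 23 of the 51 (45.1%), against 26.7% of all. AAGATGGC, the core of a YY1 site, lay in 4 of the 51 (7.84%), against 3.38% of all. Both strands were searched, and the 3 motifs do not contain one another. A CTTTCC match could lie on the opposite strand or anywhere in the window, so its share is not that of the TOP motif. Among the 4 members that passed the test, Rpl39l held CCGGAAG and CTTTCC in its longer window, Rpl7l1 held AAGATGGC and CTTTCC, and Rpl12 and Rpl14 held none of the 3. A match describes letters in the window and does not show a bound site.

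Most members were among the brightest features of the arrays. The mean signal over the 6 arrays lay above the arrays' mean 99th percentile, a log2 signal of 12.84, for 37 of the 49 members (75.5%), and those 37 were among 189 such genes in all. Their means ran from 13.15 to 14.62, while the brightest probe set of an array stood between 14.87 and 15.06. The other 12 ran from 3.62 to 12.22. They were Rpl39l, Rpl7l1, Rpl37, Rpl14, Rps25, Rps6, Rpl12, Rpl27a, Rpl39, Rps27, Rpl3l and Rps16. Rps16, which encodes a protein near the decoding site, read 3.18 to 3.88, below the arrays' mean lower quartile of 4.31, so its probe set gives only a bound in every group, although its values still enter the counts below. The 2 shared probe sets that list Rps16 had means of 14.14 and 14.31 and mSSC minus SSC differences of -0.0006 and -0.09. The split at the 99th percentile was made after the values were seen.

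**Figure D1:**
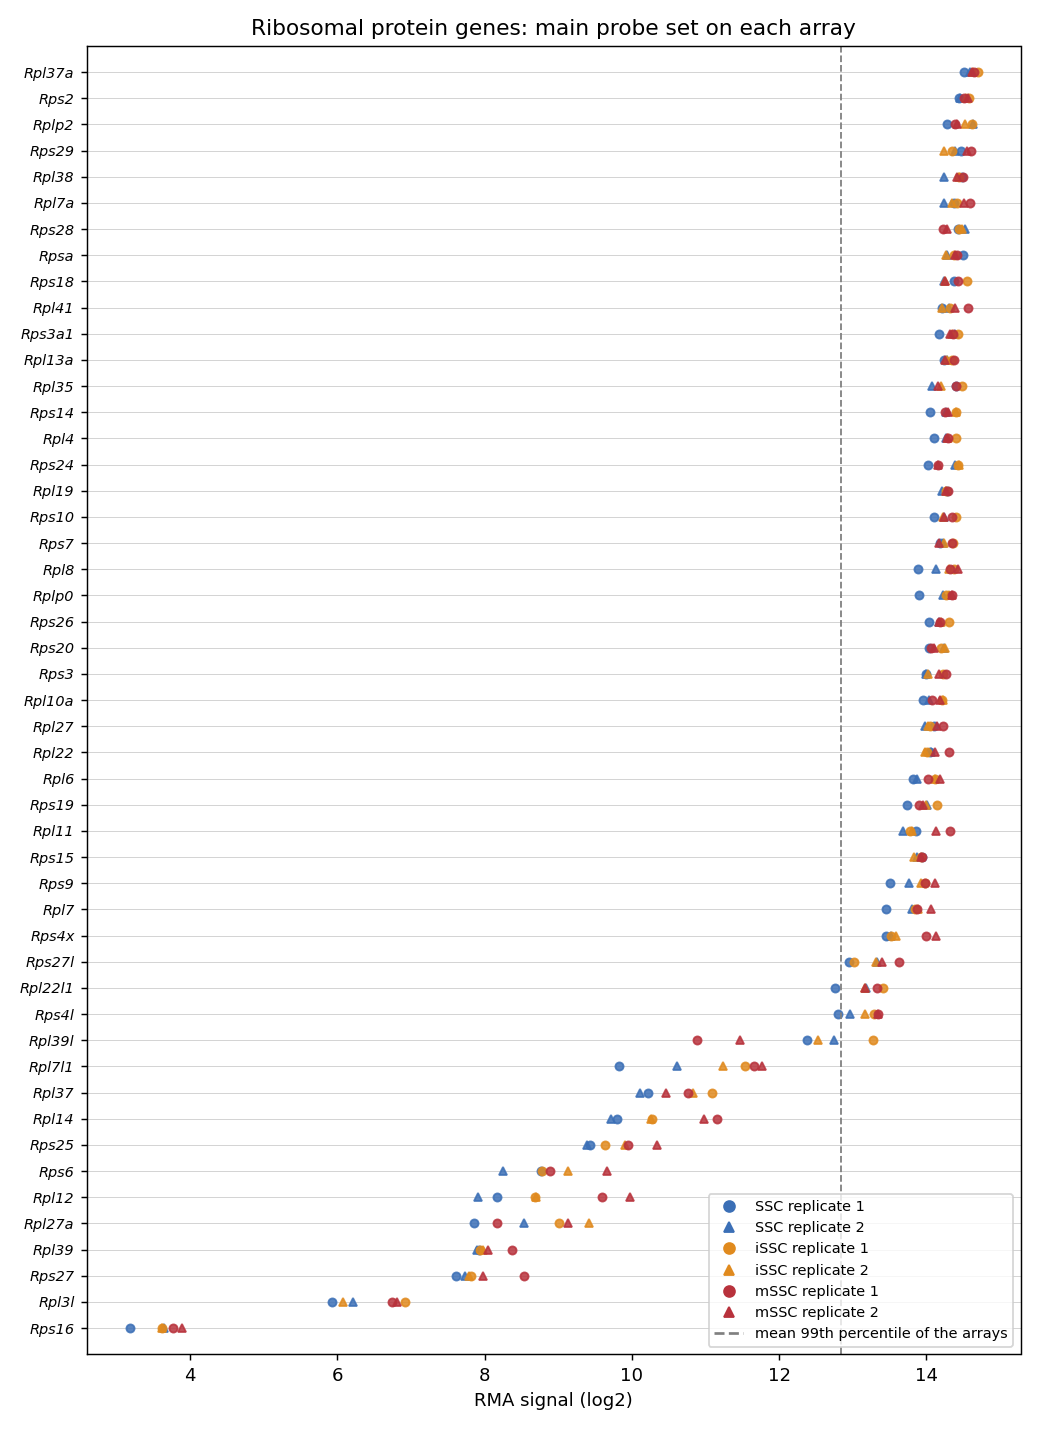
Each row is 1 of the 49 ribosomal protein genes, ordered by mean signal, and the horizontal axis is the RMA log2 signal of its main probe set; colours are the groups, circles replicate 1 and triangles replicate 2, and the dashed line is the mean 99th percentile of 12.84. For the 37 genes to the right of the line the 6 arrays lie close together. Rpl39l, Rpl7l1, Rpl14, Rpl12, Rpl27a and Rps6 spread over more than 1 log2 unit, of which Rpl27a and Rps6 passed the test in no comparison.

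The members measured here are not the whole ribosome. By the same symbol rule the RefSeq table holds 88 protein-coding genes; 48 of the members are among them, and 40 have no probe set with 1 symbol. Of these 40, 31 are listed on probe sets shared with other symbols, such as those of pseudogenes. Rpl5, Rpl35a, Rplp1, Rpl17, Rpl23a, Rpl26, Rpl31, Rpl3, Rpl10 and Rps27a are among the genes not analysed here as members.

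The groups differed in markers of their own state and of other cell types. The array medians of 7 germ cell genes were 10.92 to 11.48 in SSC, 11.07 to 11.17 in iSSC and 6.58 to 7.39 in mSSC. Those of 7 pluripotency genes were 6.04 to 7.06, 7.37 to 7.82 and 11.82 to 12.23, with Nanog and Tdgf1 below the lower quartile in SSC and iSSC. The 9 macrophage genes had medians of 11.15 to 12.51, 8.79 to 9.57 and 5.18 to 5.27, with C1qb below the lower quartile in mSSC. The 8 fibroblast genes had medians of 11.66 to 12.38, 9.71 to 10.01 and 7.90 to 10.36, and the 6 Sertoli cell genes 7.49 to 7.67, 6.30 to 6.36 and 6.46 to 6.47. In mSSC against SSC, 9 of 9 macrophage, 6 of 8 fibroblast and 5 of 6 Sertoli cell genes fell; their part in the differences below was not tested. In such mixed samples a lower share of a cell type and less RNA per cell cannot be told apart.

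Among the 49 members, 3 rose and 1 fell from SSC to mSSC: Rpl12, Rpl14 and Rpl7l1 were higher and Rpl39l was lower in mSSC. The remaining 45 did not pass the test, an adjusted p under 0.05 in limma after Benjamini-Hochberg adjustment over all 18194 genes. The called share of the members was 8.16%, and that of all genes 18.8%. For higher calls alone the background was 8.22%, and for lower calls 10.6%. All 4 were large subunit genes or copies of them. Of the 23 small subunit genes 0 passed by limma, and 2 had an unadjusted p under 0.05. The fit without moderation passed 0 of these 23, but only 14 of all 18194 genes.

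Differences of most members were small and above 0. In mSSC minus SSC 44 of 49 members were positive (89.8%), against 55.9% of all genes and 70.4% of the 189 genes above the 99th percentile. Their median difference was 0.16 log2 units, against 0.08 for all genes, and 30 of 49 were under 0.3 in size. Both mSSC arrays lay above both SSC arrays for 30 members (61.2%), where 32.3% of all genes did so, and below them for 2, where 26.3% did so; in the remaining 17 the groups overlapped. The array median over the members was 13.95 and 14.03 in SSC, 14.20 and 14.11 in iSSC, and 14.19 and 14.16 in mSSC, so both SSC arrays were below the other 4. The same held for the 189 bright genes, with array medians of 13.23 and 13.31 in SSC and 13.34 to 13.39 in the rest. The first SSC array, the lowest, also had the largest excess of 3′ over 5′ control signal: for the 4 mouse control genes beta-actin, Gapdh, transferrin receptor and pyruvate carboxylase it was 0.89, 0.25, 2.55 and 2.73 log2 units, against at most 0.61, -0.10, 2.07 and 1.32 on the other 5 arrays, and its part in the shift was not tested.

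The shift differed with brightness. In mSSC against SSC, 0 of the 37 members above the 99th percentile passed the test, 1 had an unadjusted p under 0.05, and their median difference was 0.11. The median over all 189 genes above it was also 0.11, and 9 of these passed, 5 higher and 4 lower. The 12 dimmer members had a median difference of 0.64, and all 4 calls were among them. For 9 of these 12, the symbol is also listed on shared probe sets above the 99th percentile, 19 in all, with means of 13.08 to 14.70. Those 19 differed by -0.09 to 0.26 between mSSC and SSC (median 0.06), while the main probe sets of the same 9 members had a median of 0.58. For these 9 members the larger difference was not seen on the bright shared probe sets, which were taken for their brightness. Dimmer shared probe sets are listed for Rps6 and Rpl37. Those of Rps6, with means of 4.91 to 11.22, differed by 0.52 to 0.73. That of Rpl37, with a mean of 7.13, differed by 1.00. The smallest difference of a member that passed was 1.31 log2 units. Replicate spread also differed with brightness. The median SD of SSC, iSSC and mSSC was 0.12, 0.05 and 0.08 over the members, against 0.25, 0.14 and 0.21 over all genes. Over the 12 dimmer members it was 0.19, 0.19 and 0.25, and over the 189 bright genes 0.18, 0.07 and 0.10.

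**Figure D2:**
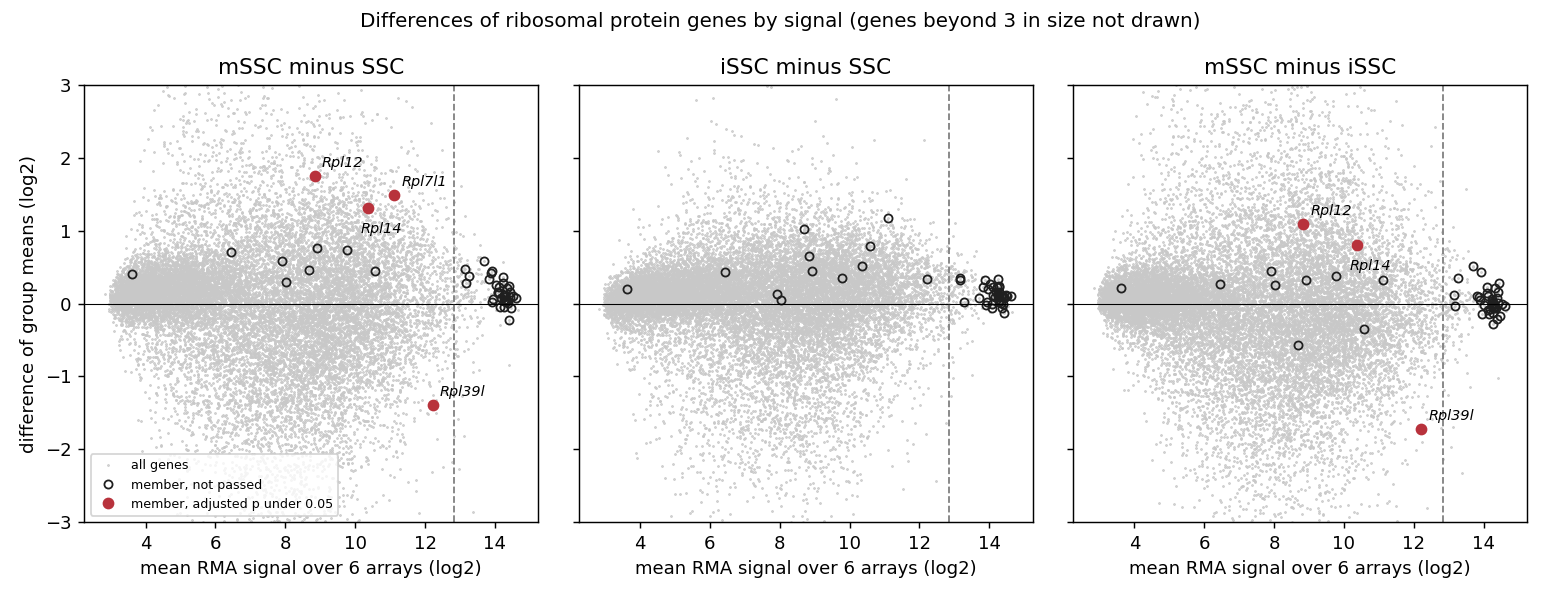
Each panel plots the difference of 2 group means (log2) against the mean RMA signal over 6 arrays (log2), grey points for all genes, open circles for members that did not pass and filled circles for members with an adjusted p under 0.05; the dashed line is the mean 99th percentile. The filled points, Rpl12, Rpl14, Rpl7l1 and Rpl39l, all lie left of the line, and members right of it stay within 0.59 log2 units of 0 in every panel.

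Rpl39l, whose protein replaces Rpl39 at the mouth of the exit tunnel in male germ cells, fell in mSSC. Its log2 signal was 12.38 and 12.75 in SSC, 13.27 and 12.53 in iSSC, and 10.89 and 11.47 in mSSC. Both mSSC arrays were below all 4 others, and the SSC and iSSC arrays overlapped. Its mSSC level was 2.62-fold below SSC (-1.39 ± 0.34 log2, SE, n = 2 arrays per group, limma adjusted p 0.0373), and 3.30-fold below iSSC (-1.72 ± 0.34, adjusted p 0.0197). For iSSC minus SSC the difference was 0.33 (adjusted p 0.697). The germ cell markers given above were lower in mSSC in the same arrays.

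The call of Rpl39l against SSC held in 1 of the 6 fits that left out an array, that without mSSC replicate 2 (adjusted p 0.0487); the others gave 0.0518 to 0.143, the largest without mSSC replicate 1. It was also lost with the replicate number as a block (0.0596) and against a 1.2-fold bound (0.059). Against iSSC it was lost without iSSC replicate 1 (adjusted p 0.131), iSSC replicate 2 (0.0511) or mSSC replicate 1 (0.0803), and the difference stayed below 0 in every fit tried. Rpl39, the parent gene, read 7.92 and 7.90 in SSC, 7.94 and 7.98 in iSSC, and 8.37 and 8.05 in mSSC. The mSSC arrays were the highest, but the difference from SSC of 0.30 ± 0.21 did not pass (adjusted p 0.381). The only other probe set that lists Rpl39, shared with a predicted gene, had a mean of 14.23 and a difference of 0.05.

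Rpl7l1, a nucleolar relative of Rpl7 that takes part in ribosome assembly, rose in mSSC. Its signal was 9.83 and 10.62 in SSC, 11.54 and 11.24 in iSSC, and 11.66 and 11.77 in mSSC. Both SSC arrays were the lowest, and they differed from one another by more than the arrays of any other group. The mSSC level was 2.81-fold that of SSC (1.49 ± 0.31 log2, limma adjusted p 0.0217), and the iSSC difference of 1.17 ± 0.31 did not pass (adjusted p 0.135). Its other 2 probe sets differed by 0.53 and 0.69 between mSSC and SSC, also upward but by less. Against SSC the call of Rpl7l1 held without SSC replicate 2 (difference 1.89) and was lost in the other 5 fits that left out an array (1.09 to 1.55). Of these 5, the 2 without an iSSC array are the same test. The iSSC difference passed in 1 fit, also without SSC replicate 2 (1.57, adjusted p 0.0497). Its parent Rpl7 read 13.45 and 13.81 in SSC and 13.87 and 14.06 in mSSC, and the difference of 0.34 ± 0.22 did not pass (adjusted p 0.351).

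Rpl12, which forms the base of the stalk that recruits elongation factors, rose in mSSC against both other groups. Its signal was 8.17 and 7.92 in SSC, 8.69 and 8.70 in iSSC, and 9.60 and 9.98 in mSSC. The 3 groups did not overlap. It was 3.36-fold higher in mSSC than in SSC (1.75 ± 0.23 log2, limma adjusted p 0.00577) and 2.13-fold higher than in iSSC (1.09 ± 0.23, adjusted p 0.0237), and the iSSC difference from SSC of 0.65 ± 0.23 did not pass (adjusted p 0.232). Against SSC, it passed in all 6 fits that left out an array, of which the 2 without an iSSC array are the same test. Against iSSC the call was lost without iSSC replicate 1 (adjusted p 0.153), iSSC replicate 2 (0.144) or mSSC replicate 2 (0.0899).

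Rpl14, another large subunit protein, had the same order of groups. Its signal was 9.80 and 9.72 in SSC, 10.28 and 10.26 in iSSC, and 11.16 and 10.98 in mSSC, again with no overlap. The mSSC level was 2.48-fold that of SSC (1.31 ± 0.20 log2, limma adjusted p 0.00868) and 1.74-fold that of iSSC (0.80 ± 0.20, adjusted p 0.0404). The iSSC difference from SSC, 0.51 ± 0.20, did not pass (adjusted p 0.270). Against SSC all 6 fits without an array kept the call, of which the 2 without an iSSC array are the same test. Against iSSC only the 2 fits without an SSC array kept it, and these 2 are the same test, since a lone SSC array adds no spread. The other 4 lost it, with differences of 0.71 to 0.89. The Rpl14 call against iSSC was also lost with a trended, robust prior (0.0533) and against a 1.2-fold bound (0.0982).

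Both genes are also listed on brighter probe sets that share pseudogene or predicted gene symbols, and these differed by less. The 2 shared probe sets of Rpl12 had means of 13.90 and 14.08 and mSSC minus SSC differences of 0.26 and 0.15. The 5 shared probe sets of Rpl14 had means of 13.08 to 13.89 and differences of 0.06 to 0.14. The calls of Rpl12 and Rpl14 therefore rest on their single-symbol probe sets alone. Over all 110 shared probe sets that list a ribosomal protein symbol, the median difference was 0.09, with 83 above 0. Of the 110, 6 were called higher and 2 lower, where 4.79% and 5.76% of all 45101 probe sets were; 77 of them lay above the 99th percentile, with 0 calls by limma.

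**Figure D3:**
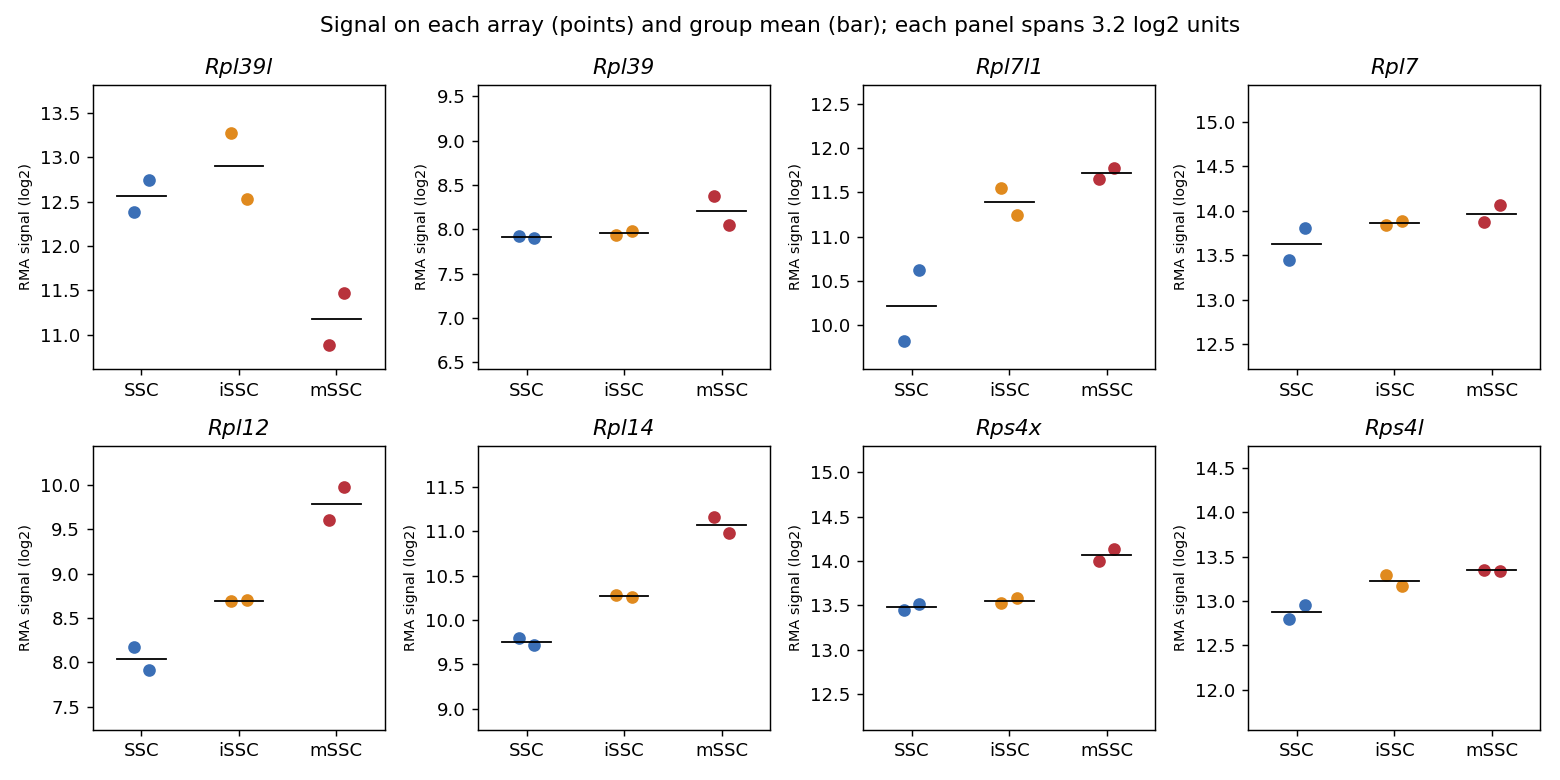
RMA log2 signal (vertical axis, each panel spanning 3.2 log2 units) of 8 members in SSC, iSSC and mSSC; points are arrays and bars are means of 2 arrays. Rpl39l is lowest in mSSC, Rpl12 and Rpl14 are at most 8.17 and 9.80 in SSC and at least 9.60 and 10.98 in mSSC, and Rpl39, Rpl7, Rps4x and Rps4l differ by less than 0.6.

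The other paralogs did not pass. Of 6 paralogs measured of 9 listed, Rpl7l1 rose and Rpl39l fell in mSSC against SSC, and Rpl3l, Rpl22l1, Rps4l and Rps27l did not pass. Rps4x, the X-linked small subunit protein, read 13.45 and 13.52 in SSC, 13.53 and 13.58 in iSSC, and 14.00 and 14.14 in mSSC. Both mSSC arrays were above the other 4, but the difference of 0.59 ± 0.20 missed the threshold (adjusted p 0.0908); it passed with a trended, robust prior (0.0331). Rps4l, its copy, read 12.80 and 12.96 in SSC, 13.29 and 13.17 in iSSC, and 13.35 and 13.34 in mSSC, and the difference of 0.47 ± 0.20 did not pass (adjusted p 0.162).

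Rpl22, a tunnel exit protein, read 14.04 and 14.06 in SSC and 14.31 and 14.12 in mSSC, a difference of 0.16 ± 0.20 (adjusted p 0.622). Its copy Rpl22l1 read 12.76 and 13.18 in SSC and 13.33 and 13.17 in mSSC, so the groups overlapped (0.28 ± 0.24, adjusted p 0.468). Rps27 read 7.61 and 7.73 in SSC and 8.53 and 7.98 in mSSC (0.58 ± 0.25, adjusted p 0.162), and its copy Rps27l, a known p53 target, 12.95 and 13.33 in SSC and 13.63 and 13.40 in mSSC (0.38 ± 0.24, adjusted p 0.339). In these pairs the copy and the parent both had mSSC minus SSC differences above 0, as did 44 of all 49 members, and none passed. Rpl3l, the striated muscle copy of Rpl3, read 5.93 and 6.21 in SSC, 6.92 and 6.08 in iSSC, and 6.74 and 6.81 in mSSC (mSSC minus SSC 0.70 ± 0.32, adjusted p 0.179).

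None of the other roles gave a further call. Of the stalk, Rplp0, the scaffold protein, differed by 0.29 between mSSC and SSC and Rplp2 by -0.06, and Rpl12 was the 1 call among 3 measured. Of the exit tunnel, Rpl19, Rpl35, Rpl22 and Rpl39 were measured of 8 listed, with differences of 0.03, 0.04, 0.16 and 0.30. Rpl11, the 5S particle protein, read 13.87 and 13.69 in SSC, 13.78 and 13.81 in iSSC, and 14.32 and 14.13 in mSSC; the mSSC arrays were the highest, and the difference of 0.45 ± 0.21 did not pass (adjusted p 0.186). Diamond-Blackfan anaemia, an inherited failure of red cell formation, is caused by mutations in ribosomal protein genes, of which 6 were measured of 9 listed. Rps19, Rps7, Rps10, Rps24 and Rps26 differed by 0.06, 0.05, 0.12, -0.05 and 0.08, and Rpl11 as above.

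Rps6, the small subunit protein phosphorylated by the S6 kinases, read 8.77 and 8.25 in SSC, 8.77 and 9.14 in iSSC, and 8.89 and 9.66 in mSSC. Its mSSC minus SSC difference was 0.76 ± 0.34 (adjusted p 0.175), the largest of the small subunit. Of the 9 shared probe sets that list Rps6, the 4 bright ones, with means of 14.28 to 14.70, differed by -0.06 to 0.08. The dimmer ones, with means of 4.91 to 11.22, differed by 0.52 to 0.73. Rps25, which is needed for translation from some internal entry sites, read 9.43 and 9.40 in SSC, 9.63 and 9.91 in iSSC, and 9.95 and 10.34 in mSSC, with no overlap of groups and a difference of 0.73 ± 0.23 (adjusted p 0.0779). The shared probe set that lists Rps25, with a mean of 13.72, differed by 0.03. Rpsa, also known as a laminin receptor, and Rpl13a, also known in translational silencing, differed by 0.01 and 0.05. Rps28 was the only member besides Rpl39l with both mSSC arrays below both SSC arrays, at 14.23 and 14.28 against 14.43 and 14.52 (-0.22 ± 0.20, adjusted p 0.483). By subunit, the median mSSC minus SSC difference was 0.25 over the large and 0.11 over the small subunit genes. The dimmer members, with a median of 0.64 against 0.11 for the bright ones, are a larger share of the large subunit genes. Subunit and brightness were not separated.

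From SSC to iSSC none of the 49 members passed by limma, and 5 had an unadjusted p under 0.05. Without moderation 0 of them passed, but only 2 of all 18194 genes did, so that fit says nothing about the members. In this comparison 2.09% of all genes passed, 0.225% higher and 1.87% lower. The median difference of the members was 0.13, against 0.10 for all genes, and 43 of 49 were positive (87.8%), against 61.5% of all genes and 70.9% of the 189 genes above the 99th percentile. The median was 0.10 over the 37 bright members and 0.14 over those 189 genes. Both iSSC arrays lay above both SSC arrays for 25 members, where 32.3% of all genes did so, and below them for 2, Rps29 and Rpl22, where 17.7% did so. The 2 comparisons with SSC share the SSC arrays. Besides Rpl7l1, the largest differences were those of Rpl27a and Rpl37. Rpl27a read 7.85 and 8.53 in SSC and 9.01 and 9.41 in iSSC (1.02 ± 0.40, adjusted p 0.272), and Rpl37 10.23 and 10.11 in SSC and 11.09 and 10.83 in iSSC (0.79 ± 0.22, adjusted p 0.156). On brighter shared probe sets the iSSC minus SSC difference was 0.008 for Rpl27a (mean 14.08), and 0.16 and 0.38 for Rpl37 (means 14.20 and 13.48). The lowest was Rps29, at 14.47 and 14.39 in SSC and 14.35 and 14.24 in iSSC (-0.13 ± 0.20, adjusted p 0.807).

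Between iSSC and mSSC the members were nearly balanced in direction on the deposited scale. Rpl12 and Rpl14 were higher and Rpl39l lower in mSSC, as given above, so 3 of 49 passed, against 17.1% of all genes (7.53% higher, 9.6% lower). The median difference was 0.03, against -0.01 for all genes, and 27 of 49 were positive (55.1%), against 49.3% of all. Centred on unlisted genes 44 of 49 were positive, and without iSSC replicate 1, 35 of 49. Both mSSC arrays lay above both iSSC arrays for 19 members, where 29.6% of all genes did so, and below them for 11, where 33.2% did so. Rpl12 had the largest difference, 1.09, and Rpl39l the lowest, -1.72. Rpl7l1 differed by 0.32 ± 0.31 (adjusted p 0.564).

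The size of the shift depended on which probe set stood for a gene and on how arrays were centred. Of the 24 members with several single-symbol probe sets, all probe sets had the same sign in 18 for mSSC minus SSC, 15 for iSSC minus SSC and 12 for mSSC minus iSSC. Rpl22, Rps3, Rps20 and Rps9 were singled out after their values were seen, since another choice of probe set brought each past the threshold. The dimmest Rpl22 probe set read 8.73 and 9.17 in SSC, 10.31 and 10.03 in iSSC, and 11.12 and 11.14 in mSSC, where the main one moved by 0.16. The mean of the Rpl22 probe sets differed by 0.92 between mSSC and SSC (limma adjusted p 0.0244), and that of Rps3, a protein at the mRNA entry site, by 0.89 (adjusted p 0.0208).

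For Rps20, a protein of the small subunit head, the 2 brightest probe sets moved by -0.05 and -0.09 in mSSC against SSC, and the 2 dimmest by 1.79 and 1.42. One of the dim ones read 5.10 and 5.12 in SSC, 4.61 and 5.36 in iSSC, and 6.26 and 7.53 in mSSC. For Rps9, a protein near the mRNA entry, the main probe set read 13.51 and 13.76 in SSC, 13.99 and 13.93 in iSSC, and 13.99 and 14.12 in mSSC. Its x_at probe set, a design with probes that may bind other transcripts, read 10.62 and 10.83 in SSC, 12.77 and 11.35 in iSSC, and 8.96 and 8.45 in mSSC. That probe set went the opposite way from the main one in mSSC, and the mean of the Rps9 probe sets was lower in mSSC than in iSSC by an adjusted p of 0.0153 (-1.14).

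Centring each array on the genes outside the lists added 0.24 log2 units to every mSSC minus SSC difference, 0.06 to every iSSC minus SSC difference and 0.18 to every mSSC minus iSSC difference. With it, 48 of 49 members were positive in mSSC against SSC, Rps4x (0.83, adjusted p 0.0324) and Rps25 (0.97, adjusted p 0.0313) rose, and Rpl39l no longer passed (-1.15, adjusted p 0.0643). Higher calls then made up 62.6% of all calls in mSSC against SSC, against 43.7% as deposited, and 56.4% in mSSC against iSSC, against 44.0% as deposited.

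Genes that make and use ribosomes changed in both directions, with more higher than lower calls in mSSC against SSC. Of 76 ribosome assembly genes measured of 77 listed, 15 rose and 1 fell, with a median difference of 0.42. These were 19.7% and 1.32%, where 8.22% of all genes rose and 10.6% fell. Wdr12, part of a complex that matures the large subunit, read 9.89 and 9.74 in SSC, 10.29 and 10.26 in iSSC, and 11.23 and 11.12 in mSSC, with no overlap (1.36 ± 0.20, limma adjusted p 0.00788). Nob1, which cuts the last piece from small subunit RNA, rose by 1.21 ± 0.24 (adjusted p 0.0197), and Lsg1, a GTPase of late large subunit assembly, by 1.04 ± 0.22 (adjusted p 0.0219). The 1 that fell was Aatf, a nucleolar assembly factor also known in stress signalling (-0.83 ± 0.22, adjusted p 0.0445).

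RNA polymerase I makes the ribosomal RNA. Of 12 of its genes measured of 15 listed, 2 rose in mSSC against SSC (16.7%, against 8.22% of all genes) and 0 fell. The 2 were the subunit Polr1e (1.30 ± 0.27, limma adjusted p 0.0218) and the initiation factor Rrn3 (0.92 ± 0.24, adjusted p 0.0447). Of 39 translation factors measured of 45 listed, 5 rose and 2 fell (12.8% and 5.13%, against 8.22% and 10.6% of all genes). Eif2s3x, a subunit of the factor that brings the initiator tRNA, read 10.46 and 10.58 in SSC, 10.19 and 10.95 in iSSC, and 12.19 and 12.18 in mSSC (1.67 ± 0.29, adjusted p 0.0128). Eif1b, a start site factor, fell from 11.31 and 11.99 in SSC to 10.18 and 9.75 in mSSC (-1.69 ± 0.31, adjusted p 0.0152).

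Of 22 genes of Myc and mTOR control measured of 23 listed, 2 rose and 3 fell in mSSC against SSC. These shares, 9.09% and 13.6%, were near the 8.22% and 10.6% of all genes. Deptor, an mTOR inhibitor, rose by 2.25 ± 0.29 (limma adjusted p 0.00519), and Eif4ebp1, the mTOR target that restrains cap-dependent translation, by 1.51 ± 0.29 (adjusted p 0.0168). Mxd4, a Myc antagonist, fell from 10.03 and 9.29 in SSC to 6.12 and 5.85 in mSSC (adjusted p 0.0014), and Rictor, of mTOR complex 2, fell by 1.33 ± 0.21 (adjusted p 0.00999). Myc itself differed by -0.45 (adjusted p 0.507), Mycn by 0.53 (0.307), Mycl by 0.57 (0.376) and Larp1 by 0.43 (0.310), none past the threshold. Of the p53 genes, 3 of 4 were measured, and Cdkn1a, the p53 target that arrests the cycle, fell from 13.00 and 12.37 in SSC to 11.25 and 11.41 in mSSC (-1.36 ± 0.28, adjusted p 0.0216). Mdm2 differed by -0.33 (adjusted p 0.474). Fau, whose product is a fusion with a small subunit protein, differed by 0.06 and did not pass.

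In iSSC against SSC these lists, 153 genes in all, had 0 higher and 4 lower calls. These counts were near the shares of all genes, 0.225% higher and 1.87% lower. Ncl, the nucleolar protein nucleolin, read 13.18 and 13.39 in SSC, 11.63 and 11.67 in iSSC, and 13.40 and 13.25 in mSSC (iSSC minus SSC -1.64 ± 0.21, limma adjusted p 0.0287). Nop58, a core protein of the snoRNPs that modify ribosomal RNA, read 10.07 and 10.95 in SSC, 7.93 and 8.23 in iSSC, and 10.95 and 11.64 in mSSC (-2.43 ± 0.38, adjusted p 0.0383). Eif3a fell by 2.01 ± 0.24 (adjusted p 0.0287), and Rictor by 2.06 ± 0.21 (adjusted p 0.0242). Ncl, Nop58 and Eif3a were lowest in both iSSC arrays, and the members had no call in that comparison. From iSSC to mSSC, Ncl rose by 1.68, Nop58 by 3.22 and Eif3a by 2.38 (adjusted p 0.00475, 0.0042 and 0.00288). The 4 calls in iSSC against SSC were lost when SSC replicate 1 or either iSSC array was left out. Those fits lost every call of that comparison over all genes, so the loss is not particular to these 4.

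**Figure D4:**
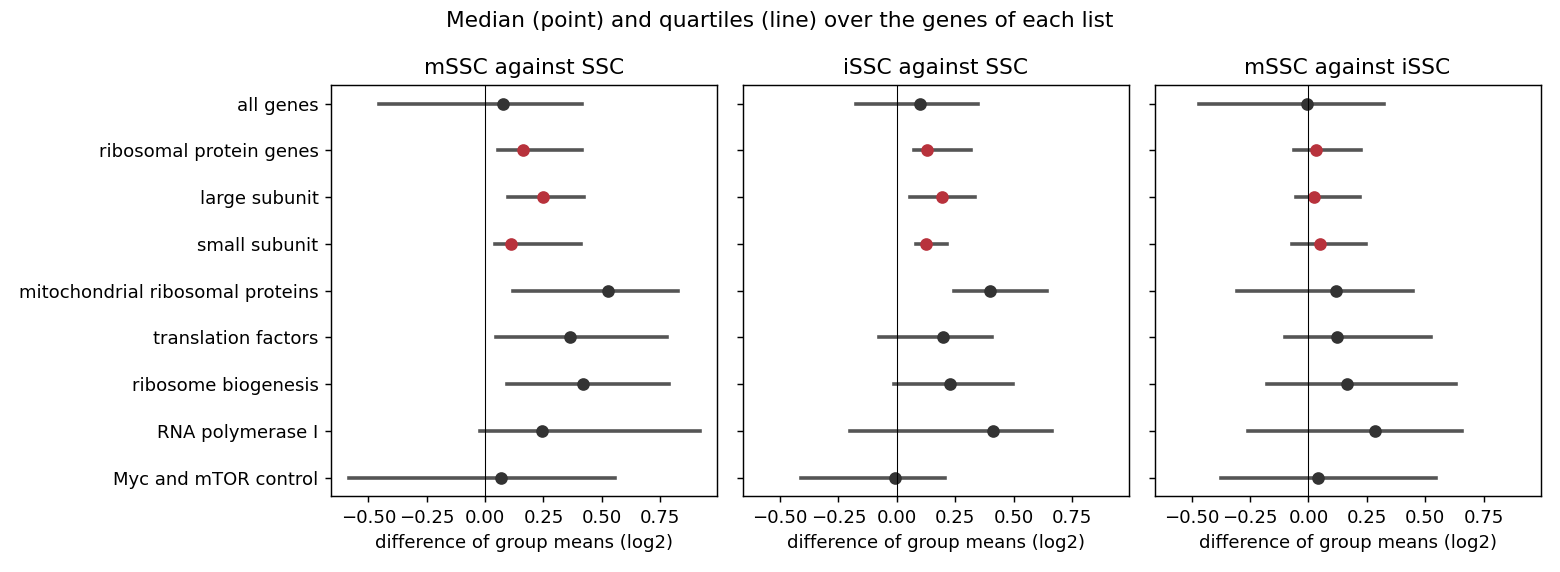
For each gene list (rows) the point is the median and the line spans the quartiles of the difference of group means (log2, horizontal axis, the same scale in all panels); red points are the ribosomal protein genes and their subunits. In mSSC against SSC the ribosomal protein genes have a median of 0.16 and a narrow span, ribosome biogenesis genes 0.42, translation factors 0.37 and mitochondrial ribosomal proteins, a list added after the data were seen, 0.53. The lists differ in brightness, and the 12 dimmer ribosomal protein genes had a median of 0.64.

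The 76 mitochondrial ribosomal protein genes, taken by their Mrpl and Mrps symbols as a list added after the data were seen, encode the separate ribosome of mitochondria. In mSSC against SSC 15 rose by limma (19.7%) and 0 fell, against 3 and 1 of the 49 cytosolic genes. Of all genes 8.22% rose and 10.6% fell. The difference between the mitochondrial and cytosolic lists was not tested. The lists differed in brightness. The mitochondrial genes had array medians of 10.32 to 10.88, while 37 of the 49 cytosolic genes lay above 12.84. The 12 dimmer cytosolic genes had a median difference of 0.64 in mSSC minus SSC, with 3 higher and 1 lower. List and brightness were not separated. The median difference of the mitochondrial genes was 0.53 in mSSC minus SSC and 0.40 in iSSC minus SSC. In mSSC against SSC 33 of the 76 had an unadjusted p under 0.05.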

How the data were processed

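RNA was extracted with Trizol and amplified and labelled with NuGEN Ovation kits, per the labels' protocols. The deposited values are log2 signals per probe set that the authors made with RMA, per the submitters' processing notes; the sources used here do not give its version. RMA subtracts background, equalises array distributions and summarises probes, so a shift of all genes together cannot be seen. Array medians were 5.83 to 5.93. Of 45101 probe sets, 34958 had 1 gene symbol, 932 several and 9211 none. Each of 18194 genes was given by its probe set with the highest mean. Differences were tested with limma 3.58.1 in R 4.3.3: 1 model of 3 group means over 6 arrays, moderated variance, Benjamini-Hochberg adjustment over all genes. The procedure was tested on simulated data. The members and lists were chosen with earlier results of these data known. Named genes are called members, paralogs and their parents, role lists, extremes, and for pathway lists the genes with the smallest p. Replicate numbers carry no stated pairing. Alternatives were filters, centring, probe set choice, model settings and leaving out arrays.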

Additional observations from a re-analysis of the deposited data

How the results depend on the processing

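Each member difference that passed kept its sign under the alternatives run. Of the single-gene values 2570 stayed on their side of the threshold, 34 lost a call and 9 gained one. Most of the 2570 had no call to lose, and all 34 losses fell on the 4 called members. Against SSC the calls held in 16 of 17 settings for Rpl12 and Rpl14, 11 of 18 for Rpl7l1 and 8 of 18 for Rpl39l. Against iSSC they held in 13 of 17 for Rpl12, 10 of 17 for Rpl14 and 14 of 18 for Rpl39l. For mSSC against SSC the members' count of 4 became 2 in the upper 10% by signal, with only the 4 arrays compared and without paralogs. It became 0 without moderation or above the 99th percentile (a setting added after seeing the data). The upper 10% held 39 members, without Rpl12 and Rpl14, and there Rpl7l1 and Rpl39l kept their calls. Leaving out paralogs removes Rpl7l1 and Rpl39l, and the 99th percentile removes all 4 called members. Those drops in the count follow from removing called genes. The members' count became 6 with the mean of probe sets and 5 with a trended, robust prior, centred on unlisted genes or without x_at and s_at probe sets. Their median of 0.16 became 0.11 in the upper 10% and above the 99th percentile, 0.23 centred on the array median, 0.40 centred on unlisted genes, 0.28 with the mean of probe sets, 0.24 without x_at and s_at probe sets where another existed and 0.26 over members not on such sets. Calls over all genes, 3425, became 398, 1966 and 14 (upper 10%, 4 arrays, unmoderated). The pathway lists' 31 became 15, 9, 0 and, against a 1.2-fold bound, 16. In every comparison the upper 10% held only 1820 genes, 79 of them in the pathway lists. The main fit held 18194 and 153, so a smaller count in the upper 10% need not be a smaller share.

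For iSSC against SSC the members' median of 0.13 became 0.20, 0.19 and 0.22 (array median, unlisted genes, mean of probe sets). The 381 calls became 3, 2, 29 and 203 (upper 10%, unmoderated, mean of probe sets, 1.2-fold bound), and the pathway lists' 4 became 2, 0 and 0. For mSSC against iSSC the members' 3 became 1, 0 and 0 (upper 10%, unmoderated, above the 99th percentile). Here too the upper 10% left out Rpl12 and Rpl14, and the 99th percentile every called member. The median of 0.03 became 0.21 centred on unlisted genes. The 3117 calls became 392 and 26 (upper 10%, unmoderated), and the pathway lists' 23 became 14, 0 and 13 (upper 10%, unmoderated, 1.2-fold bound).

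In the same order of comparisons, leaving out 1 array gave 2 to 3, 0 to 1 and 0 to 3 member calls; medians of 0.078 to 0.21 in iSSC against SSC and -0.0006 to 0.085 in mSSC against iSSC; 1966 to 3462, 0 to 503 and 604 to 3724 calls over all genes; and 8 to 38, 0 to 6 and 6 to 29 in the pathway lists. The count of 0 came without SSC replicate 1 or either iSSC array, and that of 604 without iSSC replicate 1. With the replicate number as a block, member calls were 3 (Rpl39l was lost), 0 and 3, all genes 3428, 148 and 3175 and pathway lists 35, 3 and 23; the numbers' deviations correlated at 0.12, 0.07 and 0.17, and 2 numbers cannot establish a pairing. A group left with a single array takes its spread from the other groups. In each comparison the 2 fits without either array of the third group are the same test, so the 6 fits are not 6 separate tests. The cause of these changes was not tested. The 2 arrays per group limit the precision.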
